A study of Mus musculus with 150 samples.

Results

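The 9 genes described here encode two-pore domain potassium (K2P) channels: Kcnk1, Kcnk2, Kcnk3, Kcnk4, Kcnk9, Kcnk10, Kcnk12, Kcnk13 and Kcnk18. They were taken by name, with no use of their values, from a table of 54082 genes that holds 5 further Kcnk genes. Earlier results of these data were, however, known when the genes, lists and tests were chosen. The table came from 150 single somatosensory neurons of CD1 mice from Charles River, each sequenced by Smart-seq, which copies whole polyadenylated transcripts of a single cell. By their labels 45 cells were hairy and 1 carried both skin labels, and all others were glabrous, the word for hairless skin. The sources used here do not state how a neuron was assigned to its skin. Pups of 10 litters, at postnatal day 4 (33 cells) or 5 (all others), were used on 2 plates, with no transgene or treatment named. The labels join letters in some litter names, such as E_F_G, and each name was taken as 1 litter.

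K2P channels carry the background potassium current that sets how close a neuron rests to its firing threshold. Each subunit has a pair of pore domains, and a channel is built from a pair of subunits. Subfamilies differ in what opens or closes them: the TREK and TRAAK channels (Kcnk2, Kcnk10, Kcnk4) respond to membrane stretch, heat and lipids, the TASK channels (Kcnk3, Kcnk9) close in acid, the THIK channels (Kcnk13, Kcnk12) are inhibited by halothane, and TRESK (Kcnk18) is activated through calcineurin when calcium rises. TWIK-1 (Kcnk1) gives a weak current of its own. In sensory ganglia these channels are known as brakes on touch, heat and pain neurons, and TRAAK sits at the nodes of Ranvier of myelinated axons.

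Cells were placed in classes by marker genes that are not among the 9, in CPM, the share of a cell's total count on the usual scale. Nefh, the heavy neurofilament of large myelinated neurons, was at 500 CPM or more in 84 glabrous cells, 19 hairy cells and the cell with both labels, the Nefh-high cells, and lower in 46 Nefh-low cells (20 glabrous, 26 hairy). No cell lay between 377 and 623 CPM of Nefh. Among Nefh-low cells, 20 were Tafa4-high (100 CPM or more of a marker of C-fibre touch neurons), 15 were Calca-high (500 CPM or more of the gene for the peptide CGRP, with Tafa4 below its limit) and 11 were neither. Among Nefh-high cells, 35 were Calca-high and 69 Calca-low. The smallest library held 395811 counts and the largest 1053854, with medians of 749192 in Nefh-high and 711181 in Nefh-low cells.

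The class names hold unevenly. In the 11 remaining Nefh-low cells the summed level of 6 sensory neuron markers had a median of 749 CPM, against 8019 in Nefh-high cells, and 4 of the 11 had under 10000 detected genes. Of the Tafa4-high cells, 6 also had 100 CPM or more of Mrgprd, the receptor that marks a non-peptidergic nociceptor, and the median of Th, another marker of C-fibre touch neurons, was low in the class. Of the glabrous cells 85 were on plate 1 and 19 on plate 2, and of the hairy cells 10 and 35, so skin type went partly with the plate.

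Kcnk1 (ENSMUSG00000033998.9) lies at chr8:125995170-126030685 on the plus strand of mm10, Kcnk4 (ENSMUSG00000024957.9) at chr19:6923966-6934515 on the minus strand and Kcnk13 (ENSMUSG00000045404.16) at chr12:99964499-100062682 on the plus strand. These are the 3 genes that passed the test between Nefh-high and Nefh-low neurons described further on, so the 250 bases upstream of their RefSeq starts are shown (GRCm38.p6, 5′ to 3′ on the gene's strand, no exon inside). Capitals mark a CACCC box (CCACCC) or a GC box (GGGCGG), read on either strand.
Kcnk1, chr8:125994852-125995101, plus strand: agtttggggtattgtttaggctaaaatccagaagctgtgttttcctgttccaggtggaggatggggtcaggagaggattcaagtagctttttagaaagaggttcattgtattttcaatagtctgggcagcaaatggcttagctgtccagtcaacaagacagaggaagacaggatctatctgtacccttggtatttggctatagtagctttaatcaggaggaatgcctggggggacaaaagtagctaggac
Kcnk4, chr19:6934516-6934765, minus strand: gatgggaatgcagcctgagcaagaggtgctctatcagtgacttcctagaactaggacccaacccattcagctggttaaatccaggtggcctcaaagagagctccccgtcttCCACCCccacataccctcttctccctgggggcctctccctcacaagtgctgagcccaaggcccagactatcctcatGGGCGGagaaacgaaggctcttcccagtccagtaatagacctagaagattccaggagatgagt
Kcnk13, chr12:99964249-99964498, plus strand: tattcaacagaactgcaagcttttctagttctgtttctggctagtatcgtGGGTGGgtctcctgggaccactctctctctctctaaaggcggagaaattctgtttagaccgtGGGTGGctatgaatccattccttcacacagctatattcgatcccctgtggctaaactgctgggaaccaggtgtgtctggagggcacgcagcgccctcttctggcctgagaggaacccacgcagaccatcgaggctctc
The Kcnk1 window held neither motif and 0 CpG pairs, at 44.4% G and C. The Kcnk4 window held 1 site of each at 54.8%, and the Kcnk13 window 2 CACCC boxes and no GC box at 52.8%. Of 32851 promoter windows of the same length, 28.1% held a CACCC box and 32.7% a GC box, and the median window had 52.4% G and C and 6 CpG pairs. These letters are a description and not sites shown to be used.

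Exons of some of these genes overlap other genes. Kcnk4 shares exon sequence with Catsperz on the same strand, a gene with 1590 counts over all cells against 3394 for Kcnk4, so the division of reads between them is uncertain. Kcnk1, Kcnk2 and Kcnk3 each overlap a transcript of the opposite strand (Gm45875 with 4 counts, A430027H14Rik with 76 and Gm9899 with 61, against 5551, 553 and 1453). The sources used here do not state whether counting used strand, and without it reads from the shared stretch of each pair cannot be told apart.

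Seen over all 150 cells, the channel genes ran from nearly universal to rare. Kcnk10 (TREK-2) had a count in 94.7% of cells (95% exact interval 89.8 to 97.7), Kcnk1 in 89.3%, Kcnk4 in 87.3% and Kcnk18 in 72%. Kcnk3 was found in 63.3%, Kcnk2 (TREK-1) in 53.3%, Kcnk12 in 40.7%, Kcnk13 in 29.3% and Kcnk9 (TASK-3) in 8.67%. With every cell thinned to 390000 counts the shares were 94% for Kcnk10, 86.7% for Kcnk1, 31.3% for Kcnk12 and 6.67% for Kcnk9. Intervals cover counting error only. Divided by the length of each gene's exons, the mean level over cells was 22 CPM per kb for Kcnk1, 8.09 for Kcnk18, 6.71 for Kcnk4, 3.84 for Kcnk10, 3.60 for Kcnk3, 2.12 for Kcnk12, 1.36 for Kcnk13, 1.07 for Kcnk2 and 0.0514 for Kcnk9. Kcnk1 was also highest, at a mean of 49.1 CPM, and Kcnk9 lowest, at 0.632 CPM, before division by length. Whether the deposited counts were already scaled for length is not given, so the order between these ends is uncertain. A Nefh-high neuron had counts for a median of 5.5 of the 9 genes, with a range of 3 to 8. Tafa4-high neurons had a median of 6.

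**Figure D1:**
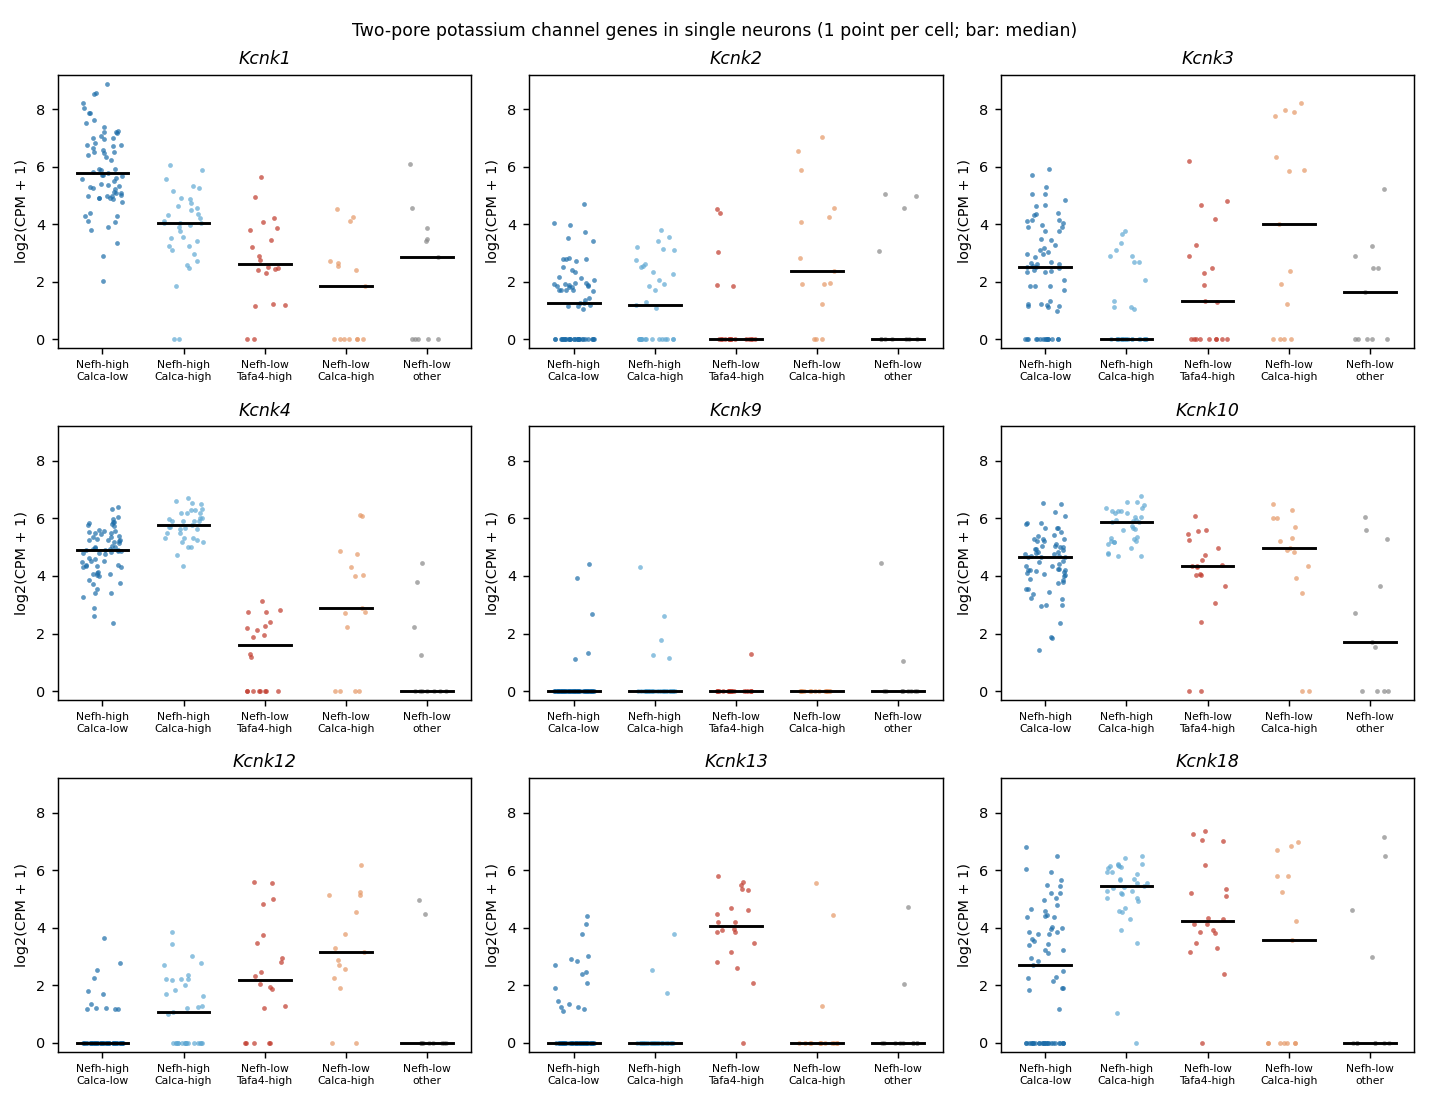
Level of each of the 9 K2P genes, as log2(CPM + 1), in single cells of 5 classes; each point is 1 cell and the bar is the median. Kcnk1 and Kcnk4 are highest in the Nefh-high classes, Kcnk13 lies above 0 in 19 of 20 Tafa4-high cells, and Kcnk9 is at 0 in most cells of every class.

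The first comparison asked how these genes differ between large Nefh-high neurons and Nefh-low neurons. Kcnk1 and Kcnk4 were higher in Nefh-high neurons, Kcnk13 was lower, and the other 5 genes tested did not pass. Counts were summed per litter and class in the 7 litters with at least 2 cells of each class, and tested with edgeR's quasi-likelihood test with the litter as a block. Of 13135 genes 22.7% passed at a Benjamini-Hochberg adjusted p of 0.05, 11.6% higher and 11.2% lower in Nefh-high neurons, beside 3 of 8 channel genes. Kcnk9 had too few counts to enter the test. The labels do not say how many animals a litter's sum holds, so p-values measure the spread between these litters.

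Kcnk1, the TWIK-1 gene, stood at a lowest, median and highest litter value of 14, 83.8 and 118.3 CPM in Nefh-high neurons, and at 4.96, 7.74 and 13.4 CPM in Nefh-low neurons. The ranges did not overlap, although litter M, with 14 CPM against 13.4 CPM, was nearly level. Kcnk1 was higher in 7 of 7 litters, by 2.95 ± 0.42 on the log2 scale (SE, n = 7 litters, edgeR adjusted p = 0.00111). It was 3.37 on plate 1 (3 litters) and 2.67 on plate 2 (4 litters). By cell, Kcnk1 was found in 98.1% of Nefh-high neurons and 69.6% of Nefh-low neurons.

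Kcnk4, the TRAAK gene, was at 25.8, 34.3 and 44.3 CPM (lowest, median and highest litter) in Nefh-high neurons and at 1.14, 6.32 and 17.9 CPM in Nefh-low neurons, again with no overlap. Every Nefh-high neuron held a Kcnk4 count, against 58.7% of Nefh-low neurons. Higher in 7 of 7 litters, Kcnk4 differed by 2.39 ± 0.45 on the log2 scale (SE, n = 7 litters, edgeR adjusted p = 0.00471), with 3.06 on plate 1 and 1.97 on plate 2, where the adjusted p was 0.0567. Within glabrous cells alone (3 litters) it was 3.57 with an adjusted p of 0.0739. Without the cells at 100 CPM or more of Mrgprd (5 litters) it was 2.38 with an adjusted p of 0.0842. Catsperz, which shares exon sequence with it, differed by 0.39 (SE 0.43, edgeR adjusted p = 0.553).

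Kcnk13, the THIK-1 gene, ran the other way. Its litter values were 0, 1.10 and 2.22 CPM in Nefh-high neurons and 4.30, 10.4 and 29.3 CPM in Nefh-low neurons, lower in Nefh-high neurons in 7 of 7 litters and without overlap. The log2 difference was -3.68 ± 0.48 (SE, n = 7 litters, edgeR adjusted p = 0.000778), with -3.68 on plate 1 and -3.56 on plate 2, where the adjusted p was 0.0521. THIK-1 is also known from microglia and macrophages. The median summed level of 6 macrophage markers was 6.24 CPM in Nefh-high neurons (0 to 198) and 10.7 CPM in Tafa4-high neurons (0 to 413), with C1qa, Csf1r and Cx3cr1 at a median of 0 in both. In Nefh-low neurons the median sum was 12.2 CPM. On log values Kcnk13 and this sum had a Pearson r of 0.017 over all cells and -0.059 over Nefh-high cells. It was -0.21 over Nefh-low and -0.38 over Tafa4-high cells. The part of these markers in the Kcnk13 difference was not tested.

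Kcnk12, the THIK-2 gene, had 0, 1.16 and 5.91 CPM in Nefh-high and 2.28, 11.3 and 29.6 CPM in Nefh-low neurons. It was lower in Nefh-high neurons in 6 of 7 litters, the exception being litter M, and its log2 difference of -2.89 ± 0.94 (SE, edgeR adjusted p = 0.0504) lay just outside the threshold. The plates gave -4.56 and -1.12. Without litter M it was -3.50 (adjusted p = 0.0154). Leaving out the litter that ran the other way favours a difference, so this call is no support for it. Kcnk12 passed in 10 of 20 alternatives, this one among them. Leaving out cells at 100 CPM or more of Mrgprd left both THIK genes below the filter on low counts.

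Kcnk3 (TASK-1) was at 0.739, 5.66 and 25 CPM in Nefh-high and 2.02, 20.4 and 85.9 CPM in Nefh-low neurons, with overlap, and its difference of -1.53 ± 0.58 did not pass (edgeR adjusted p = 0.0851). Without litter H it was -1.79 (adjusted p = 0.0448). Litter H was the only litter with more Kcnk3 in Nefh-high neurons. Leaving it out favours a difference, so this call is no support for it. Kcnk18 differed by -0.97 ± 0.62 (-0.53 without litter H) and Kcnk2 by -1.27 ± 1.02 (-0.63 without litter M). Kcnk10 had the smallest difference of the 8, 0.19 ± 0.23, at 12.9, 35.7 and 51 CPM in Nefh-high and 18.4, 24.3 and 42 CPM in Nefh-low neurons. Markers of other cells moved with this class comparison too: the summed level of 6 myelinating Schwann cell markers had a median of 1363 CPM in Nefh-high, 4288 CPM in Tafa4-high and 2932 CPM in Calca-high Nefh-low neurons. Fibroblast markers (5 of 6 above a median of 0, Pdgfra at 0) summed to a median of 153.9 CPM in Nefh-high neurons (2.57 to 4526) and 661 CPM in Nefh-low neurons (0 to 18715). The part of both lists in these results was not tested. With the 11 unnamed Nefh-low cells left out the differences were 3.20 for Kcnk1, 2.29 for Kcnk4 and -3.87 for Kcnk13, and each passed.

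**Figure D2:**
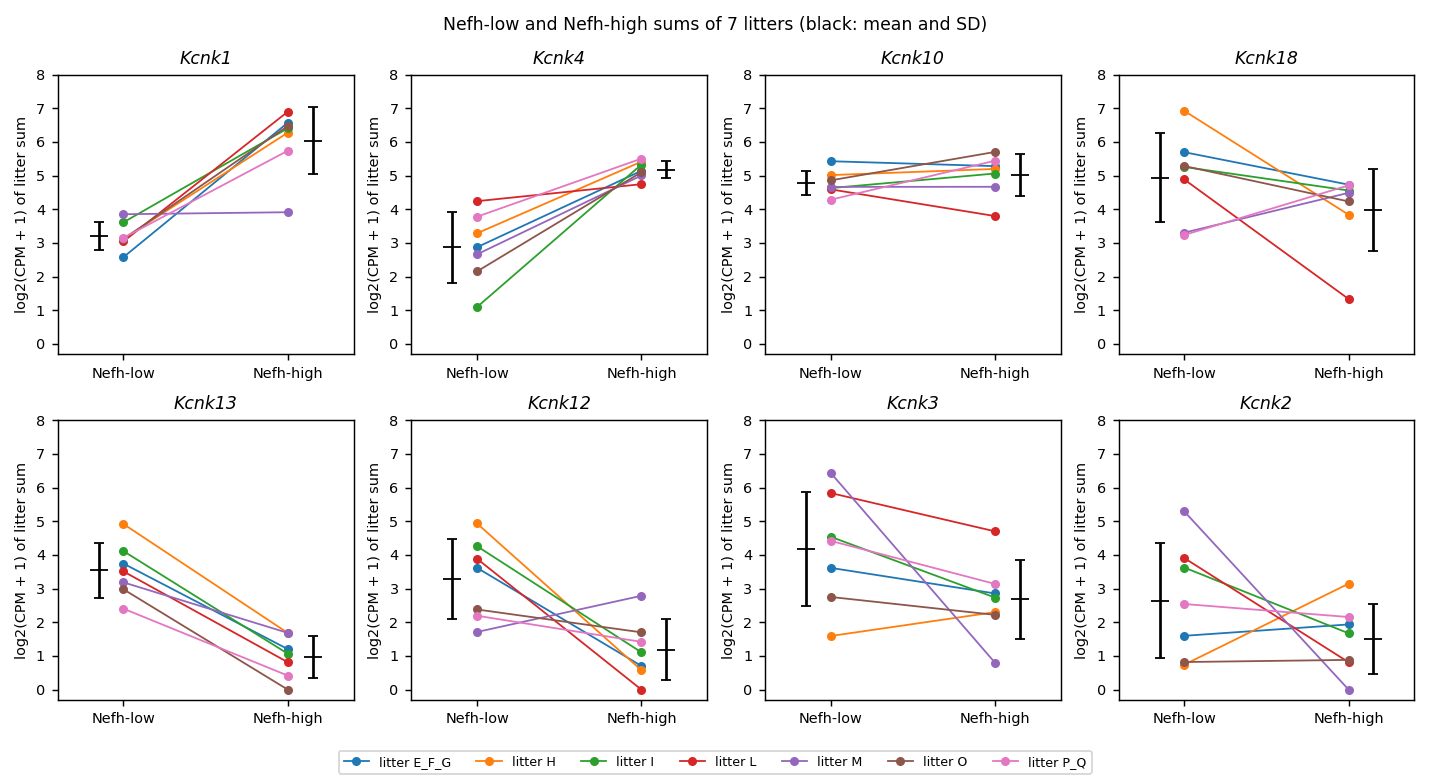
Summed level of 8 K2P genes in Nefh-low and Nefh-high neurons of 7 litters, as log2(CPM + 1); each line joins the 2 sums of a litter and the black mark is the mean with its SD. All lines rise for Kcnk1 and Kcnk4 and fall for Kcnk13, while those of Kcnk10 stay close to level.

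Within Nefh-high neurons the channel genes also differed between Calca-high and Calca-low cells. Calca-high cells had less Kcnk1 and more Kcnk10, Kcnk18 and Kcnk4. This comparison was added after the data had been seen and used 8 litters with at least 1 cell of each class. Of 12573 genes 14.9% passed (7.29% higher, 7.59% lower in Calca-high cells), and of the 5 channel genes that entered the test 4 passed, 3 higher and 1 lower.

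Kcnk10, the TREK-2 gene, had litter values of 37.1, 57 and 69.3 CPM in Calca-high and 16.6, 29.2 and 40.6 CPM in Calca-low cells. It was higher in 8 of 8 litters, although the ranges overlapped, by a log2 difference of 1.00 ± 0.15 (SE, n = 8 litters, edgeR adjusted p = 0.00137). On plate 1 (6 litters) it was 1.16 and on plate 2 (3 litters) 0.77, where the adjusted p was 0.198. On plate 2 alone none of the channel genes passed.

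Kcnk18, the TRESK gene, was at 19.1, 39.7 and 60.3 CPM in Calca-high and 0, 10.4 and 33.4 CPM in Calca-low cells, higher in 7 of 8 litters. The exception was litter K, where the levels were 31.4 and 33.4 CPM. Its log2 difference was 1.91 ± 0.47 (SE, n = 8 litters, edgeR adjusted p = 0.0184), with 1.39 on plate 1 and 2.62 on plate 2 (adjusted p = 0.0828 and 0.27). It was 1.81 without litter E_F_G (adjusted p = 0.0577) and 1.83 without litter P_Q (adjusted p = 0.0553). By cell, Kcnk18 was found in 97.1% of Calca-high and 62.3% of Calca-low Nefh-high neurons.

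Kcnk4 rose less, from 16.8, 33.3 and 49.2 CPM in Calca-low to 27.6, 58.1 and 67.6 CPM in Calca-high cells, higher in 7 of 8 litters. Its log2 difference was 0.81 ± 0.22 (SE, edgeR adjusted p = 0.0282), 0.69 on plate 1 and 0.92 on plate 2 (adjusted p = 0.162 and 0.267). The call was lost without litter E_F_G, H, I, O or P_Q in turn, at adjusted p from 0.0554 to 0.0813 and log2 differences from 0.68 to 0.84. Catsperz differed by 0.03 (edgeR adjusted p = 0.95).

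Kcnk1 fell from 22.5, 91.1 and 136.2 CPM in Calca-low to 6.52, 18.0 and 34.2 CPM in Calca-high cells. It was lower in 7 of 8 litters, the exception being litter A_B with 32.4 against 22.5 CPM. The log2 difference was -1.93 ± 0.34 (SE, n = 8 litters, edgeR adjusted p = 0.00308), -1.97 on plate 1 and -1.89 on plate 2 (adjusted p = 0.0532 and 0.167). Kcnk3 differed by -1.93 ± 0.67 and did not pass (adjusted p = 0.0779). Without litter A_B it was -2.31 (adjusted p = 0.0389), and without litter O -2.39 (adjusted p = 0.0248). These were the 2 litters where Kcnk3 was higher in Calca-high cells. Leaving either out favours a difference, so these calls are no support for it. Summed satellite glia markers had a median of 1325 CPM in Calca-low and 328 CPM in Calca-high cells, and over the Nefh-high cells they went with Kcnk3 (Pearson r = 0.45 on log values). Their part in the Kcnk3 difference was not tested. Kcnk12 had too few counts for the test, but its litter values of 0.57, 1.73 and 5.85 CPM in Calca-high cells were above the 0, 0.128 and 1.53 CPM of Calca-low cells in 8 of 8 litters. Without the filter its difference was 2.74 (adjusted p = 0.00804, edgeR over 32375 genes). Kcnk2, Kcnk9 and Kcnk13 did not enter the test either.

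**Figure D3:**
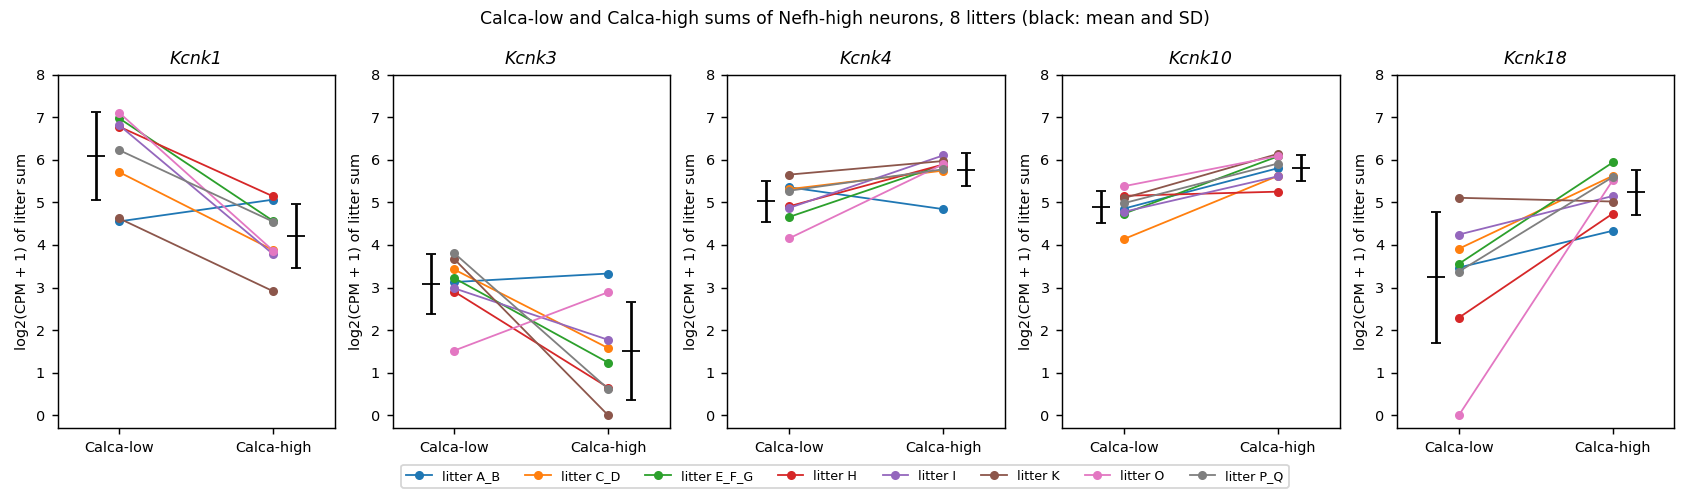
Summed level of the 5 K2P genes tested in Calca-low and Calca-high cells among Nefh-high neurons, as log2(CPM + 1), in 8 litters; each line joins the 2 sums of a litter and the black mark is the mean with its SD. Kcnk10 rises in every litter, Kcnk4 and Kcnk18 in 7 of 8, and Kcnk1 falls in 7 of 8.

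Calca-low Nefh-high neurons were then split by which of 3 growth factor receptor genes was highest. This split was made after the data had been seen and is given as description, with no test. It left 36 Ret-highest cells (25 glabrous, 10 hairy), 16 Ntrk2-highest cells (14 and 2) and 17 Ntrk3-highest cells, all glabrous. Some litter sums of these groups held 1 cell, as in litter H for each of the 3 receptors. Median Kcnk1 was 182 CPM in Ntrk3-highest, 85.1 CPM in Ntrk2-highest and 30.6 CPM in Ret-highest cells, against 15.5 CPM in Calca-high cells. In the 4 litters with both kinds, Kcnk1 was at 192 to 273 CPM in Ntrk3-highest and 45.3 to 54.9 CPM in Ret-highest sums. In 5 litters Ntrk2-highest sums were also above Ret-highest sums in every litter, although the ranges, 50.9 to 111.2 and 30.7 to 54.9 CPM, overlapped.

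Kcnk4 ran in the reverse order, with medians of 39 CPM in Ret-highest, 26.7 CPM in Ntrk2-highest and 19 CPM in Ntrk3-highest cells. The Ret-highest sum was the higher in 4 of 4 litters against Ntrk3 and in 5 of 5 against Ntrk2. Kcnk18 had a count in 23.5% of Ntrk3-highest cells (4 of 17), 66.7% of Ret-highest cells and 93.8% of Ntrk2-highest cells. Kcnk2, a stretch-gated channel gene at low level here, was found in 93.8% of Ntrk2-highest cells, 52.8% of Ret-highest and 35.3% of Ntrk3-highest cells. Its Ntrk2-highest sum exceeded the other 2 in 5 of 5 litters each, but some of these sums held 1 cell and few counts. In litter L it was 1 cell with 1 count, against 0 counts in the Ntrk3-highest cell. In litter C_D it was 1 cell with 2 counts, against 3 counts in 3 Ret-highest cells. With Ret-highest cells as the only Calca-low cells (7 litters), the Calca differences were -1.0 for Kcnk1, 1.38 for Kcnk10 and 1.41 for Kcnk18, which passed, and 0.39 for Kcnk4, which did not (edgeR adjusted p = 0.0369, 0.0017, 0.0253 and 0.209). Kcnk3 then passed at -2.43 (adjusted p = 0.047). This set has no Ret-highest cell of litter O, where Kcnk3 ran the other way, so the Kcnk3 call is no support for a difference.

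**Figure D4:**
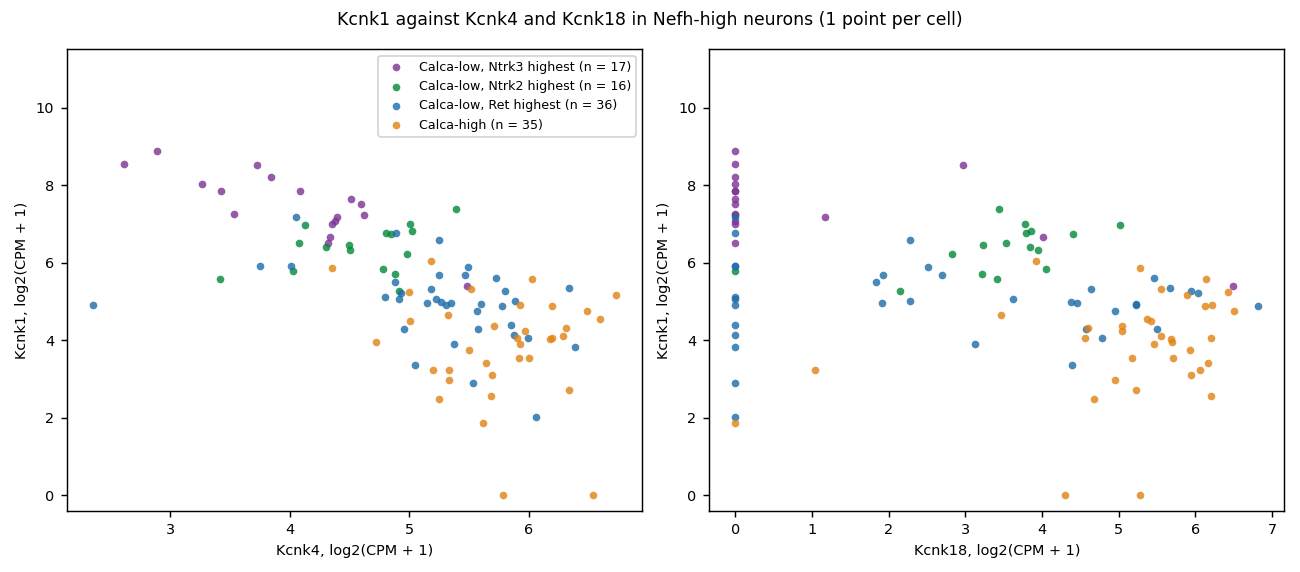
Kcnk1 against Kcnk4 (left) and Kcnk18 (right) in the Nefh-high neurons, as log2(CPM + 1), 1 point per cell, coloured by the receptor gene that is highest in Calca-low cells or as Calca-high. Most Ntrk3-highest cells lie at high Kcnk1 and low Kcnk4, and most Calca-high cells at low Kcnk1 and high Kcnk4.

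The unmyelinated-type Nefh-low classes were compared next, Tafa4-high against Calca-high, in 7 litters with at least 1 cell of each. None of the 6 channel genes tested passed, where 4.2% of 10682 genes did. At an unadjusted p below 0.05, 1967 genes and 2 of the 6 channel genes (Kcnk13 and Kcnk3) lay. Sums held 1 to 4 cells.

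Kcnk13 had litter values of 10.9, 20.02 and 47.5 CPM in Tafa4-high neurons and 0, 0 and 27.5 CPM in Calca-high neurons, where 4 of 7 litters had no count. It was higher in Tafa4-high neurons in 7 of 7 litters, with overlapping ranges, at a log2 difference of 3.73 ± 0.96 (SE, edgeR adjusted p = 0.0579), 2.28 on plate 1 and 5.69 on plate 2. Without litter I it was 4.74 (adjusted p = 0.0348). Litter I held the highest Calca-high value, so leaving it out favours a difference and this call is no support for it. By cell, 19 of 20 Tafa4-high neurons (95%, exact interval 75.1 to 99.9) and 3 of 15 Calca-high neurons (20%, 4.33 to 48.1) had a count. Those 3 were the Calca-high cells with 100 CPM or more of Mrgprd. The other 12 had none, which allows a share of up to 25%.

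Kcnk3 leaned the other way, with 0, 9.35 and 22.6 CPM in Tafa4-high and 0, 43.4 and 269 CPM in Calca-high neurons, lower in Tafa4-high neurons in 6 of 7 litters. The log2 difference was -2.99 ± 0.94 (SE, edgeR adjusted p = 0.108), -3.14 on plate 1 and -2.89 on plate 2. It was -3.62 without litter O (adjusted p = 0.0184), and -3.66 without the Mrgprd cells (4 litters, adjusted p = 0.0135). Both settings leave out litter O, the litter that ran the other way, since its Calca-high cell was among the Mrgprd cells. That cell had 0 CPM of Kcnk3. Leaving it out favours a difference, so these Kcnk3 calls are no support for it. Kcnk2 and Kcnk4 had too few counts for the filter, and each was lower in Tafa4-high neurons in 7 of 7 litters. Kcnk2 was at 0, 0.857 and 6.83 CPM against 1.37, 6.52 and 113.2 CPM, and Kcnk4 at 1.87, 2.52 and 3.95 CPM against 2.17, 12 and 47.7 CPM. Without the filter their differences were -3.25 (adjusted p = 0.000372) and -2.23 (adjusted p = 0.0382), with edgeR over 27560 genes. With the filter Kcnk2 entered the test without litter H or O, and passed at -3.28 and -3.22 (edgeR adjusted p = 0.0388 and 0.032). Calca-high cells of those litters had little Kcnk2, at 0 and 2.74 CPM in H and 2.84 CPM in O. Leaving such a litter out favours a difference, so these calls are no support for it. The remaining differences were 0.92 ± 0.94 for Kcnk1, -0.75 ± 0.52 for Kcnk10, -0.95 ± 0.66 for Kcnk12 and 0.53 ± 0.74 for Kcnk18. Single litters moved these: with each left out in turn Kcnk1 ran from 0.36 (without litter M) to 1.44 (without litter I; without litter P_Q it did not enter the test), Kcnk10 from -1.07 to -0.35, Kcnk12 from -1.36 to -0.52 and Kcnk18 from 0.17 to 1.07, and none passed. In hairy cells only, Kcnk1 was at 2.47 (adjusted p = 0.324).

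The Mrgprd cells stood apart in channel content. This group too was chosen after its values had been seen, so it is described with no test. It holds 12 Nefh-low cells of 6 litters, 9 glabrous and 3 hairy: 6 of them Tafa4-high, 3 Calca-high and 3 neither. Median Kcnk18 was 113.6 CPM in the 12 cells, against 13.8 CPM in the 14 Tafa4-high cells below 100 CPM of Mrgprd and 0 in the 12 such Calca-high cells. Those Tafa4-high cells were 2 glabrous and 12 hairy, and those Calca-high cells 3 glabrous and 9 hairy. The groups thus differ in skin type too, and its part was not tested. Kcnk12 was at a median of 28.8 CPM against 2.13 and 5.90 CPM, and Kcnk10 at 40.7 CPM against 15.6 and 28.8 CPM. Kcnk13 was at 23 CPM against 13.9 CPM and 0. Kcnk3 was at 0 in 9 of the 12 Mrgprd cells, with medians of 3.61 CPM in the Tafa4-high and 57.3 CPM in the Calca-high cells without Mrgprd. One of the 12 had only 4360 detected genes.

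The skin comparison asked whether neurons of hairy and glabrous skin of the same litter differ in these genes. None of the 6 channel genes tested passed over all neurons, where 0.0934% of 12852 genes (0.0389% higher, 0.0545% lower in hairy sums) did and 1277 genes lay at an unadjusted p below 0.05. Kcnk3 came closest. In glabrous sums its lowest, median and highest values were 1.75, 4.49 and 17.5 CPM, and in hairy sums 5.77, 15.9 and 64.7 CPM. The ranges overlapped, but the hairy sum was higher in 7 of 7 litters, and the log2 difference was 1.74 ± 0.32 (SE, n = 7 litters, edgeR adjusted p = 0.138). It was 2.10 on plate 1 (3 litters) and 1.5 on plate 2 (4 litters), and DESeq2 called it at 1.75 (adjusted p = 7.12e-05). Markers of other cells were higher in hairy neurons too, by median sums over 6 genes each: Schwann cell markers at 2932 against 1406 CPM, fibroblast markers at 431 against 174.3 CPM and satellite glia markers at 1152 against 956 CPM. The lists had wide ranges, of 761 to 38665 against 49.9 to 16197 CPM, 0 to 11030 against 2.57 to 18715 CPM, and 2.71 to 15842 against 0 to 11904 CPM. Over all cells Kcnk3 went with the satellite glia sum (Pearson r = 0.44), and their part in the skin difference was not tested.

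In Nefh-high neurons alone, Kcnk3 was at 1.75, 4.55 and 6.58 CPM in glabrous and 0, 19.2 and 26.5 CPM in hairy sums, higher in hairy sums in 6 of 7 litters. The one litter with no hairy count, O, had 1 hairy cell, as did litters A_B and H, where the hairy sum was higher. The log2 difference was 1.95 ± 0.57 (SE, edgeR adjusted p = 0.603). It was 2.65 on plate 1 (4 litters) and 0.87 on plate 2 (3 litters). No gene of 12087 passed (0%) and 729 lay at an unadjusted p below 0.05, beside 0 of 5 channel genes. DESeq2 gave 1.94 for Kcnk3 (adjusted p = 0.0227). In Calca-low cells only (6 litters) edgeR gave 2.86 (adjusted p = 0.0245), and in Ret-highest cells only (5 litters) 3.09 (adjusted p = 0.0193). Both cell sets were chosen after the data had been seen, and neither holds litter O, whose hairy cell is Calca-high. Litter M had no glabrous Nefh-high cell and was outside these tests. Its 2 hairy Nefh-high cells, both Ret-highest, had 0 and 1.53 CPM of Kcnk3. Median Kcnk3 per cell was 14 CPM in 19 hairy and 2.57 CPM in 84 glabrous Nefh-high neurons, while the share of cells with a count was 63.2% and 64.3%.

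Kcnk1 was lower in hairy sums over all neurons in 6 of 7 litters, at 8.31, 17.2 and 73.8 CPM against 18.2, 61.8 and 90.01 CPM, a log2 difference of -1.52 ± 0.60 (SE, edgeR adjusted p = 0.439). The plates gave -0.46 and -2.26. With Nefh class in the model it was -0.12, and within Nefh-high neurons -0.82 ± 0.46 (-1.26 without litter C_D). The classes differ between skins: 19 hairy and 84 glabrous cells were Nefh-high, against 26 and 20 that were Nefh-low, and none of the 17 Ntrk3-highest cells was hairy. Kcnk13 differed by 2.79 ± 0.93 over all neurons, higher in hairy sums in 6 of 7 litters (edgeR adjusted p = 0.35). On plate 1 it was 1.66, and on plate 2 it did not enter the test. Of the 20 Tafa4-high cells 14 were hairy. The part of class in these 2 differences cannot be told apart from skin within whole sums.

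Kcnk4 differed by -0.09 ± 0.16 over all neurons and 0.58 ± 0.23 in Nefh-high neurons, and Kcnk10 by -0.56 ± 0.39 and -0.75 ± 0.35. For Kcnk18 the differences were -0.27 ± 0.63 and -1.09 ± 0.59. In Ret-highest Calca-low cells only, Kcnk18 was at -5.18 (edgeR adjusted p = 0.0502) and Kcnk4 at 0.0052. Without litter O, Kcnk10 over all neurons was at -0.26. None of these passed (edgeR on all neurons or all Nefh-high neurons, lowest adjusted p = 0.689 over all neurons and 0.815 in Nefh-high neurons), which does not show that the skins are alike. Kcnk2 and Kcnk12 did not enter the test over all neurons. Kcnk2 was at 0.385, 1.37 and 16.1 CPM in hairy and 0.53, 2.99 and 5.73 CPM in glabrous sums, lower in hairy sums in 6 of 7 litters, and Kcnk12 at 0, 2.91 and 24.04 CPM against 0, 1.31 and 9.85 CPM, higher in 5 of 7. In Nefh-high neurons Kcnk13 was also too low to enter. Kcnk9 had 43 counts in glabrous sums, all from 3 litters, and 0 in hairy sums of the same 7 litters. A count of 0 allows up to 3 by counting error alone, which leaves out the spread between cells. Single glabrous cells of litters C_D and E_F_G had 18.9 and 20.5 CPM of Kcnk9, while most cells had 0. A hairy cell of litter M, which was outside this comparison, had 1.53 CPM. In Nefh-low neurons 5 litters could be compared, with 1 to 5 cells per sum. No gene of 11055 passed (0%), 55 lay at an unadjusted p below 0.05, 0 of 7 channel genes passed, and the median log2 difference over all genes was 0.56. The litter values there are therefore not read as levels of skin.

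**Figure D5:**
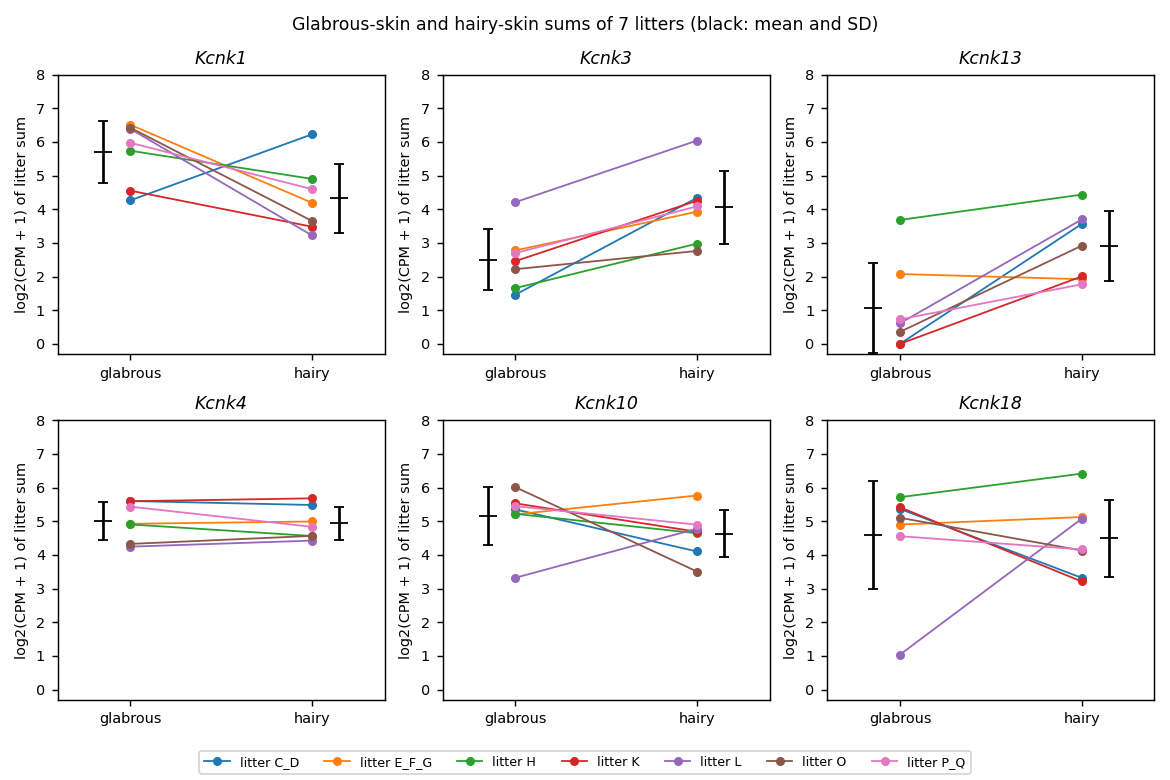
Summed level of the 6 K2P genes tested in glabrous and hairy neurons of 7 litters, as log2(CPM + 1); each line joins the 2 sums of a litter and the black mark is the mean with its SD. Kcnk3 rises in every litter from glabrous to hairy, and Kcnk1 falls in 6 of 7.

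Over the cells of the broad classes the channel genes varied together or apart. Each class pools subgroups whose levels of these genes differed above, and the part of the subgroups in the correlations was not tested. These are correlations of log values over cells that share litters, plates and depth, given as description. Over the Nefh-high cells (69 Calca-low and 35 Calca-high) Kcnk1 and Kcnk4 were opposed (Pearson r = -0.67, Spearman rho = -0.71), Kcnk3 and Kcnk18 likewise (r = -0.54), and Kcnk4 and Kcnk18 went together (r = 0.57). Over 46 Nefh-low cells Kcnk2 and Kcnk3 went together (r = 0.72), as did Kcnk10 and Kcnk12 (r = 0.61), while Kcnk3 and Kcnk18 were again opposed (r = -0.55). Over 20 Tafa4-high cells Kcnk10 and Kcnk18 had r = 0.75.

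For each channel gene found in at least 30% of cells, the genes with the most similar pattern were sought among 15369 genes by Pearson correlation of log2(CPM + 1) over the 150 cells. Kcnk1 was closest to Tafa2 (r = 0.77), Coro6 and Vamp1. Kcnk4 was closest to Caly (0.83), Sv2b and Syndig1l. Kcnk18 was closest to Gna14 (0.78), Ptger3 and Antxr2, and Kcnk12 to Mrgpra1 (0.75), Mal2 and Gfra3. Kcnk10 had Pde2a (0.63) first and Kcnk3 had Fibin (0.54). For Kcnk2 the list was led by Bcl11a (0.48) and by Kcnk3 itself (0.44).

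The other 5 K2P genes in the table, Kcnk5, Kcnk6, Kcnk7, Kcnk15 and Kcnk16, were too low to enter any test. Kcnk5 (TASK-2) had a count in 43.3% of cells and Kcnk16 in 2%. Of 24 known regulators and partners of K2P channels, all were tested between the Nefh classes, 5 were higher and 4 lower in Nefh-high neurons, and their median log2 difference was -0.13, against -0.052 over all genes. Among all genes tested 22.7% passed (11.6% higher, 11.2% lower). Map2, a microtubule protein, rose by 2.08, and Gnaq, the G protein alpha subunit that inhibits several K2P channels, fell by 0.73 (edgeR adjusted p = 0.00093 and 0.00354). Ppp3r1, the regulatory subunit of calcineurin, rose by 0.77, and Ywhag, a 14-3-3 protein, by 0.62 (edgeR adjusted p = 0.00902 and 0.00629).

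Between Calca-high and Calca-low Nefh-high neurons 4 of the 24 regulators were higher and 3 lower, with a median of 0.13 against -0.0096 over all genes, where 14.9% of all genes passed (7.29% higher, 7.59% lower). Ppp3ca, a catalytic subunit of calcineurin, was higher by 1.64 in Calca-high cells (edgeR adjusted p = 0.000144). Bves, a membrane protein that binds TREK-1, was higher by 2.66, while Mark1, a kinase, differed by -1.30 and Sort1, a sorting receptor, by -1.06 (edgeR adjusted p = 0.00202, 0.00236 and 0.00643). In the Nefh-low classes 23 were tested, 1 was higher and 2 lower in Tafa4-high neurons, with a median of -0.032 against 0.033 over all genes, where 4.2% of all genes passed (2.38% higher, 1.83% lower). Mark1 was at 3.20, Ppp3ca at -1.10 and Bves at -0.91 there (edgeR adjusted p = 0.0201, 0.0126 and 0.0307). None passed by skin, where Ppp3r1 came first at -0.29 over all neurons and Pld2 at -1.30 in Nefh-high neurons (edgeR adjusted p = 0.419 and 0.815).

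Of 16 inward rectifier and sodium leak channel genes, which also set the resting potential, 8 were tested between the Nefh classes and 1 passed. Of all genes 22.7% passed, and 8 genes are too few to set apart from that share. It was Fam155a, a partner of the sodium leak channel, higher by 4.95 in Nefh-high neurons (edgeR adjusted p = 0.000894), beside a list median of -0.024. Of 8 tested between the Calca classes of Nefh-high neurons, 1 passed, where 14.9% of all genes did: Unc80, of the same channel complex, at -0.92 (edgeR adjusted p = 0.0398), beside a list median of -0.49. In the Nefh-low classes 0 of 5 passed, where 4.2% of all genes did, with Kcnj12 first at 1.53 (edgeR adjusted p = 0.0945), and by skin none passed.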

How the data were processed

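Single neurons were sequenced by Smart-seq, 1 cell per sample, with Nextera XT libraries per the labels' protocols. The authors' tools, per the submitters' processing notes, included FastQC, cutadapt and Salmon, with the genome build mm10. Versions, annotation and any scaling for length were not given in the sources used here. From Salmon, per those notes, the authors deposited estimated counts of each gene in each cell, in whole numbers and without normalization. CPM here is the count divided by the cell's or the sum's total.

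Detection is 1 count or more, with exact Clopper-Pearson 95% intervals. Counts were summed per litter and class or skin, with at least 2 cells per sum for the Nefh and the all-neuron skin comparisons and 1 cell otherwise. The cell with both skin labels entered the class comparisons only. Sums were tested with edgeR 4.0.16 (R 4.3.3, limma 3.58.1): filterByExpr, TMM, quasi-likelihood F-test, litter as block, Benjamini-Hochberg adjusted p of 0.05 over all genes. The SE is the log2 difference divided by the square root of F. The litter comes from the labels and pairs the sums. Each litter lay in 1 library batch and 1 plate, except that litter I spans 2 batches and litter K 2 batches and 2 plates. Correlations of the 2 sums of a litter after centring ran from -0.22 to 0.288. DESeq2 1.42.0, other size factors, no filter, no block, other limits for Nefh, Tafa4 and Calca, single plates, 1 skin, and each litter left out were alternatives. The comparison of Calca classes in Nefh-high neurons, the receptor and Mrgprd groups, and the alternatives built on them were chosen after seeing the data. The genes, lists and tests were chosen with earlier results of these data known. All 9 genes are named. From each list up to 4 genes that passed, by smallest p, were named, or else those with the smallest p. The tests were checked on simulated data. Gene positions are from a GENCODE annotation of mm10 and upstream sequences from RefSeq. Levels were computed with pandas 2.3.3 and numpy 2.4.6 in Python 3.11.15, intervals with scipy 1.17.1 and plots with matplotlib 3.10.9.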

Additional observations from a re-analysis of the deposited data

Results flagged for a closer look

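Groups of litter values were screened by Dixon's criterion for a litter far from the rest. Its chance rate of about 1 in 20 groups assumes normal values and independent groups. Sums of few cells in CPM need not be normal, and the groups share cells, so no excess over chance can be read. In 12 of 60 groups, 1 litter lay far from the rest. Between Nefh classes, these were Kcnk2 in Nefh-low sums of litter M (38.3 CPM, next 14 CPM), Kcnk3 in Nefh-high sums of litter L (25 CPM, next 7.82 CPM), Kcnk12 in Nefh-high sums of litter M (5.91 CPM, next 2.26 CPM) and Kcnk18 in Nefh-low sums of litter H (120 CPM, next 50.8 CPM). The Nefh-high sums of litters L and M held 2 cells each. Between the Nefh-low classes it was Kcnk13 in Calca-high sums of litter I (27.5 CPM, next 10.3 CPM).

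In the skin comparison, litter L was apart for Kcnk3 on both sides, at 17.5 CPM in glabrous and 64.7 CPM in hairy sums (next 5.85 and 19.2 CPM). Hairy sums were apart for Kcnk1 in litter C_D (73.8 CPM, next 28.8 CPM), Kcnk10 in litter E_F_G (53.5 CPM, next 28.9 CPM) and Kcnk18 in litter H (84.5 CPM, next 33.9 CPM), and the glabrous sum of litter H for Kcnk13 (11.8 CPM, next 3.21 CPM). Among Calca-high Nefh-high sums Kcnk4 was low in litter A_B (27.6 CPM, next 52.6 CPM).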

How the results depend on the processing

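Values here are numbers of channel genes called, then the genes whose direction turned; the cause was not tested for any of them. For Nefh-high against Nefh-low, 3 genes were called, 5 with DESeq2, with no filter, with no replicate block and with a Nefh limit of 1000 CPM, and 1 on plate 2 alone. The remaining settings gave 2 to 4, with 2 only without cells at 100 CPM of Mrgprd. The number of genes called over the table was 2988, with a range of 180 to 3898. For Tafa4-high against Calca-high, 0 were called, 2 with DESeq2, 4 with no filter and 1 with a Nefh limit of 1000 CPM, in hairy cells only and without cells at 100 CPM of Mrgprd. Leaving out each litter gave 0 to 2, and 14 to 1293 genes against 449 over the table. For skin in all neurons 0 became 2 with DESeq2 and 3 with no filter (0 to 342 genes against 12), and in Nefh-high neurons 0 became 1 with DESeq2, with no filter, in Calca-low cells and in Ret-highest cells (0 to 226 genes against 0). For Calca classes in Nefh-high neurons 4 became 1 on plate 1 and 0 on plate 2, and 2 to 5 with each litter left out (157 to 2646 genes against 1870). Removing the replicate block changed no other number of called channel genes by over 1.5 times, but took Kcnk13 between the Nefh-low classes from 3.73 to 2.02.

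Kcnk1 kept its call between Nefh classes in 21 of 21 alternatives, Kcnk13 in 19 of 20 and Kcnk4 in 18 of 21. Directions turned only in genes without a call. Between Nefh classes, Kcnk10 turned to -0.061 with Calca-low cells only, Kcnk2 to 0.20 on plate 1 and Kcnk18 to 0.072 without Mrgprd cells. Between Nefh-low classes, Kcnk12 turned to 0.16 on plate 1 and Kcnk18 to -0.35 on plate 2. For skin, Kcnk4 turned to 0.75 with Nefh class in the model and 0.15 with at least 1 cell per sum, and Kcnk18 to 0.021 without litter C_D and 0.076 without litter K, in a range from -0.72 to 0.076 with each litter left out. For Nefh-low neurons by skin, at least 2 cells per sum left 1 litter and was not run. Sums of 1 to 4 cells limit the comparison of Tafa4-high with Calca-high neurons, and small sums also limit that of skin in Nefh-low neurons. A channel gene near 1 count per cell is detected less often in shallow cells: thinning took Kcnk12 from 29.8% to 19.2% and Kcnk2 from 56.7% to 46.2% of Nefh-high cells.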
